A study of Mus musculus with 8 samples.

Results

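DMRT6, the transcription factor encoded by Dmrtb1, was mapped by chromatin immunoprecipitation and sequencing in adult mouse testis, and the peaks described here lie at divergent promoter pairs. A divergent pair is a minus-strand gene and a plus-strand gene that start close together and are transcribed away from each other. A peak was kept when its middle lay within 1 kb of the 5' end of a minus-strand gene and within 1 kb of that of a plus-strand gene on the same chromosome, with the minus-strand end at the lower coordinate. Of 14862 deposited peaks, 358 met this rule, which is 2.41% (exact 95% interval 2.17 to 2.67). They made up 13.1% of the 2724 peaks within 1 kb of any 5' end. The rule used positions only, and neither peak score nor expression chose the members. The 358 peaks fell at 316 pairs formed by 628 genes.

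The study holds 8 mouse samples. Whole testes at postnatal day 8 (P8) on a C57BL/6 background were profiled by RNA-seq, with 3 biological replicates of wild type and 3 labelled Dmrt6 null. A DMRT6 immunoprecipitate and an input, 1 library each, came from wild-type adult testis with the strain given as C57BL/6, Mixed. The antibodies were rabbit polyclonals raised against the C-terminal part of DMRT6. The labels describe the null allele no further, and the binding and expression data come from different ages.

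Divergent promoters are common in mammals and usually lie in CpG islands, stretches rich in CG dinucleotides. A shared nucleosome-depleted region between the paired starts often serves both genes, and housekeeping functions such as DNA repair, RNA processing and mitochondrial translation are frequent among them. DMRT proteins bind DNA through an intertwined zinc-binding DM domain, at a palindromic core written ACANTGT. DMRT6 is expressed in late mitotic spermatogonia, the germ cells about to enter meiosis.

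The RNA-seq libraries held 23768316 to 29046494 reads in the gene table. Dmrtb1 itself had 194, 510 and 254 reads in wild-type replicates 1 to 3 and 14, 25 and 26 reads in the null libraries, so the genotypes did not overlap in the targeted gene. Its difference was -3.78 on the log2 scale (SE 0.36, adjusted p = 0.0516 in the limma fit over all genes). Null replicate 3 stood apart, with Pearson r of 0.962 to 0.976 across genes against the other 5 libraries, which correlated with each other at 0.979 to 0.991. All 4 Sertoli cell markers measured (Sox9, Amh, Wt1, Gata4) were highest in that library, with a summed level of 719 CPM against 306 to 445 CPM in the other 5 libraries, and none was at 0. Germ cell markers were present in every library, including Ddx4 at 7.81 to 8.06 log2 CPM, where CPM stands for reads scaled to a common library size. Of the 5 germ cell markers, 2 were also highest in null replicate 3, Zbtb16 at 6.42 log2 CPM against 5.35 to 5.66 in the other libraries and Kit at 7.43 against 6.71 to 7.13. The spermatid genes Prm1 and Tnp1 had 1 to 4 and 10 to 20 reads. In bulk tissue, fewer cells of a type and less RNA per cell cannot be told apart.

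The promoter letters of bound pairs can be read directly where RefSeq starts match the table's. RefSeq windows (GRCm38.p6, 250 bases before to 50 after each start) were matched for 495 of the 628 genes, and for 62 pairs the paired starts lay within 250 bases of intervening sequence and within 20 bp of the spacing in the expression table. These 62 stretches had a median length of 92 bases and a median of 64.9% G and C. The stretches below lie between the starts of bound pairs that recur in the results, read 5' to 3' on the plus strand of GRCm38.p6, with the minus-strand gene to the left. Capitals mark 3 motifs searched on both strands, the GC box GGGCGG of SP factors, the CCAAT box of NF-Y and the ETS site CCGGAAG. A match on the minus strand appears as the reverse complement of these letters.
Ddx5/Ccdc45, chr11:106789186-106789251: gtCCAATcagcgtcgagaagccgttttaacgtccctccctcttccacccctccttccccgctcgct
Palb2/Dctn5, chr7:122132947-122133040: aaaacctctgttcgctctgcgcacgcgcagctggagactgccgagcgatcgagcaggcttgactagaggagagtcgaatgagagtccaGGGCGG
Ptcd2/Mrps27, chr13:99344679-99344785: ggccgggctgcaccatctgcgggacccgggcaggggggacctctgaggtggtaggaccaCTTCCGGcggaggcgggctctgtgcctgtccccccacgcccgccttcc
Ppwd1/Cenpk, chr13:104228845-104228965: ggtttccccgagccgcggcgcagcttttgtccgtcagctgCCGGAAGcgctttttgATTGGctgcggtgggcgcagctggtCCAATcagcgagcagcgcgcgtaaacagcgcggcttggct
Hdlbp/Sept2, chr1:93478918-93479060: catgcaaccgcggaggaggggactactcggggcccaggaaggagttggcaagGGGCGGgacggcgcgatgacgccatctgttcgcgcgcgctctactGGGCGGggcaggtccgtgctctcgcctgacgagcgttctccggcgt
Vezt/Fgd6, chr10:94035800-94036000: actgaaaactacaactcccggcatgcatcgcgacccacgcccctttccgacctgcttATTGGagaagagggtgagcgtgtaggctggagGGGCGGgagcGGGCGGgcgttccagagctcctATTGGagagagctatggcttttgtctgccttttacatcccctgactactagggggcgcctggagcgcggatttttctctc
Nae1/Car7, chr8:104534638-104534699: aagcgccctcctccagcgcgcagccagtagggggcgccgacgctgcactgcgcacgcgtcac
Kdm4d/Cwc15, chr9:14500483-14500618: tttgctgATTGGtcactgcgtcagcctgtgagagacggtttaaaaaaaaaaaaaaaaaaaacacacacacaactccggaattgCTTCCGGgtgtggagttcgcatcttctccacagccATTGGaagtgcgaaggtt
2810029C07Rik/Mark3, chr12:111574403-111574509: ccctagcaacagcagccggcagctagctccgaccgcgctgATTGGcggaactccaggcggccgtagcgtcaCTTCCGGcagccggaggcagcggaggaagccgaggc
Hist1h2ah/Hist1h2bk, chr13:22035644-22035820: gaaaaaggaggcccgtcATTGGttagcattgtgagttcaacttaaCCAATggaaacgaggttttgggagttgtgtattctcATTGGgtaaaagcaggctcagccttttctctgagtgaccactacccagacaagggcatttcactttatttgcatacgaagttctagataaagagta
The first 3 pairs carry a single marked motif each, a CCAAT box at Ddx5/Ccdc45, a GC box at Palb2/Dctn5 and an ETS site at Ptcd2/Mrps27. The Hdlbp/Sept2 stretch holds 2 GC boxes, and the Vezt/Fgd6 stretch holds 2 GC boxes and 2 CCAAT boxes. No marked motif occurs at Nae1/Car7, the shortest shown at 62 bases. The histone pair has 3 CCAAT boxes and the lowest share of G and C of those shown, 42.4%.

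Across the 62 stretches a GC box occurred in 27, a CCAAT box in 22, an ETS site in 11 and the NRF1 site GCGCATGC in 5. A TATA box (TATAAA) and the DMRT core ACANTGT each occurred in 0. The 62 stretches hold only 6046 bases and are rich in G and C. A count of 0 for these motifs, made mostly of A and T, therefore says little. In the 596 RefSeq windows of genes at bound pairs, 65.8% held a GC box, 25.8% an ETS site and 4.87% a TATA box. The shares were 65.2%, 24.0% and 6.29% in 1844 windows of other divergent pairs, and 35.7%, 8.86% and 13.6% in all 32851 RefSeq windows. CCAAT boxes were at similar shares in the 3 sets, 39.6%, 41.8% and 37.4%. The DMRT core occurred in 28 of the 596 windows (4.70%), in 3.15% of windows of other divergent pairs and in 7.54% of all windows. The longer palindrome TACANTGTA, which contains that core, occurred in 0 of the 596 and in 0.548% of all windows. The matched windows represent 78.8% of the genes at bound pairs, under 80%, so a comparison of base composition over the gene set is void and these shares describe the matched windows only. The DNA under the peaks themselves was not read here, because the peaks are on mm9 and the sequences on GRCm38.p6.

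Where a DMRT core did occur before a start, its context is shown with 10 bases on each side, on the gene's own strand, with the core in capitals.
Tcte3, chr17:15041773-15041799, minus strand: ctcatcaaacACAGTGTtctgtaaatt
Mrps27, chr13:99344647-99344673, plus strand: aggggccgaaACACTGTagccatgttg
Uqcr10, chr11:4704465-4704491, minus strand: tggaatatgaACATTGTaataaactgt
S100pbp, chr4:129189745-129189771, minus strand: aaaaaccaaaACAGTGTaggtggagct
Pou2f1, chr1:165935072-165935098, minus strand: agttgccttgACAATGTcagtcctcgc
The core at Tcte3, which encodes a dynein light chain, begins 230 bases before the RefSeq start. At Mrps27, a protein of the mitochondrial ribosome, it begins 129 bases before. The site at Uqcr10, a subunit of respiratory complex III, is the same one found before the start of its partner Zmat5, and the S100pbp site is likewise shared with Yars, the tyrosyl-tRNA synthetase gene. Pou2f1 encodes the octamer-binding factor OCT1. Windows were taken at every RefSeq start of a gene and were not matched to the paired 5' end. Pou2f1 had another core, at chr1:165953133-165953159, before a different start. The core shown for Pou2f1 may therefore lie away from the bound pair. A match describes letters in a window and is not a measured binding site.

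The position of each peak was taken relative to the centre of its pair. The rule keeps only middles in a window symmetric about that centre, so closeness to it and balance around it are a description. Among the 362 combinations of a peak and a pair (4 peaks belong to 2 pairs), the middle was between the paired 5' ends in 143 (39.5%), inside the plus-strand gene in 115 (31.8%) and inside the minus-strand gene in 104 (28.7%). The offset of the middle from the pair's centre had a median of -0.5 bp and quartiles of -143.5 and 133.6 bp. In bins of 100 bp the counts on either side of the centre were 75 toward the minus-strand gene and 76 toward the plus-strand gene. The median distance from the middle to the nearer 5' end was 70 bp (quartiles 30 and 214.5), and 61.0% of combinations were within 100 bp of it. Other promoter peaks, the 2366 remaining within 1 kb of a 5' end, had a median distance of 166 bp and 37.5% within 100 bp. Of these 2366, 145 also had 5' ends of both strands within 1 kb, with the plus-strand end lower. The class is therefore not made of single promoters only. A pair offers 2 ends to be near, so these distances are not measured on equal terms.

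**Figure D1:**
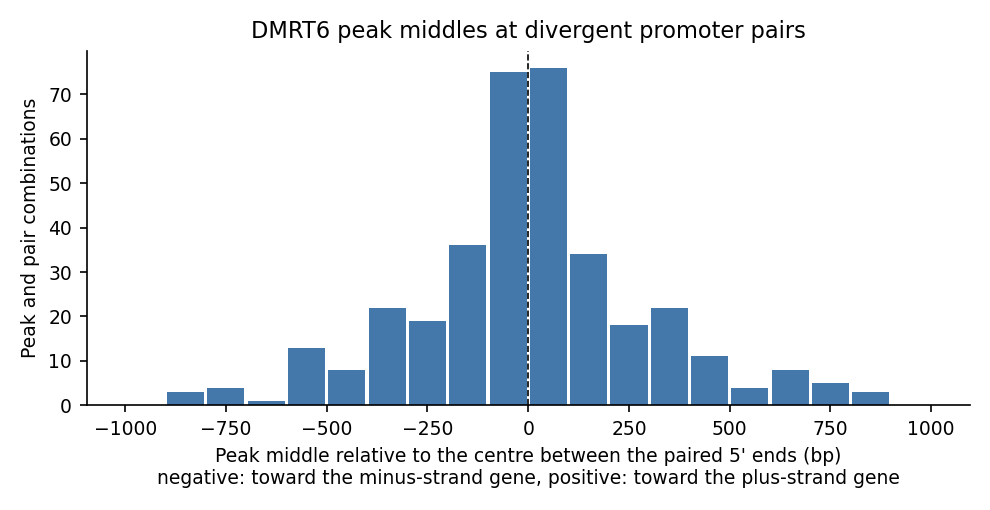
Counts of peak and pair combinations by the distance of the peak middle from the centre between the paired 5' ends, in bins of 100 bp. The bins next to the centre hold 75 and 76 of the 362 combinations, and counts are lower farther out on both sides.

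Spacing of the bound pairs is limited by the rule, so it is not on equal terms with that of other pairs. The distance between the 5' ends had a median of 153 bp at the 316 bound pairs (quartiles 84.75 and 290.25, range 2 to 1491) and 167 bp at the 1005 divergent pairs without a member peak. The bound pair at the minimum of 2 bp has Rnf185, an E3 ubiquitin ligase, as its minus-strand gene. At the 1 kb boundary, the last peaks inside the rule were 979 bp (4632434I11Rik/Prcp), 981 bp (2310033E01Rik/Xrcc1) and 990 bp (Gm4969/Fbxo46) from the farther 5' end, with scores of 57.89, 83.43 and 136.83. The nearest outside were 1004 bp (Scarna13/Glrx5), 1011 bp (Gm16001/Ogfod2) and 1039 bp (Fiz1/Zfp524) away, with scores of 96.97, 68.94 and 51.03. Scores on the 2 sides of the boundary span similar values.

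Peak scores at divergent pairs had a median near that of other promoter peaks and below that of distant ones. The score is the authors' own value from MACS and its scale is not given in the sources used here. Its median was 83.5 at divergent pairs (quartiles 64.9 and 127), 85.9 at other promoter peaks and 97.0 at the 12138 peaks farther than 1 kb from any 5' end. When all peaks were cut into 5 equal groups by score, 34.9% of divergent pair peaks were in the lowest group (exact 95% interval 30.0 to 40.1), beside 30.7% of other promoter peaks and 17.5% of distant peaks. The highest group held 13.4%, 14.1% and 21.3%. The intervals of the 2 promoter classes overlapped in every group. Peaks at divergent pairs had a median width of 210.5 bp, against 199 bp and 171 bp. There is 1 immunoprecipitate, so none of these values has a replicate.

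**Figure D2:**
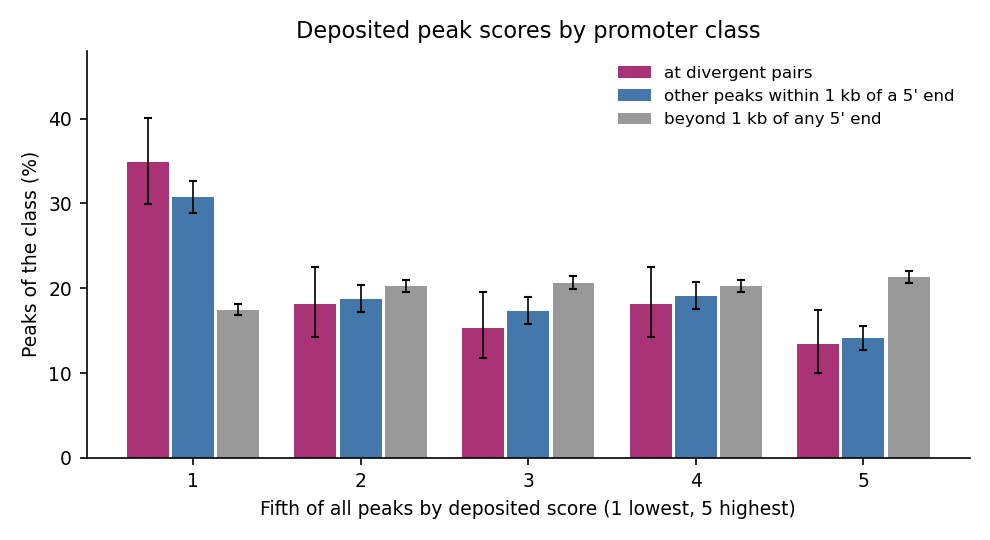
Share of each class of peaks in 5 equal groups of all 14862 peaks by deposited score, with exact 95% binomial intervals that cover counting error only. Divergent pair peaks (34.9%) and other promoter peaks (30.7%) are most frequent in the lowest group, and distant peaks are spread almost evenly.

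The 8 highest-scoring members reached well above that median. The top score, 785.57, was at chr3:142545599-142545949 (mm9, as for all peaks), 315 bp from the nearer end of the pair formed by Pkn2, a protein kinase C-related kinase, and 9530052C20Rik. The next, 659.69, was at chr6:4697862-4698247, inside Peg10 and 748 bp from its 5' end. Peg10, a retrotransposon-derived gene, and its partner Sgce, which encodes epsilon-sarcoglycan, are neighbouring imprinted genes expressed from the paternal allele. The peak at Gm3510/Cacna2d1, a calcium channel subunit gene, scored 643.26. A peak of 628.75 at chr1:10028400-10028785 lay 293 bp inside Cspp1, a centrosome and spindle pole protein, whose partner Cops5 encodes the catalytic subunit of the COP9 signalosome. The remaining 4 were at Gm16994/Lphn1 (594.71), Tcte3/2210404J11Rik (538.17), Gm10655/Tle3 (458.16) and Prmt1/Gm15545 (399.91). In 6 of these 8 pairs a partner carries only a clone or model name.

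Most pairs had a single peak, and 38 had more. There were 2 peaks at 31 pairs, 3 at 6 pairs and 4 at 1 pair, Vezt/Fgd6 on chromosome 10. Vezt encodes vezatin, an adherens junction protein, and Fgd6 a guanine nucleotide exchange factor for CDC42. The 4 middles there spanned 992 bp, 2 in each gene, with a top score of 86.48, and flanked the 184 bp between the 5' ends with none inside it. Of the 38 pairs, 14 had a peak inside each gene, and the outermost middles were a median of 507 bp apart. Ranked by summed score among pairs with full gene symbols, the leading ones were Ddx5/Ccdc45, Hist1h2ae/Hist1h2bg, Acot13/Tdp2, Vezt/Fgd6 and Nup98/Pgap2. Ddx5, an RNA helicase, had both its peaks (216.35 and 210.24) inside its own 5' portion. At Nup98, a nuclear pore component, and Pgap2, the peaks of 74.49 and 199.26 lay 256 bp and 763 bp into the respective genes. At Hist1h2ae/Hist1h2bg, genes for histones H2A and H2B, peaks of 127.32 and 241.04 also lay in both genes.

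The share of divergent pairs that were bound was counted over the gene table. Of 1321 divergent pairs with 5' ends up to 2 kb apart, 316 (23.9%, exact 95% interval 21.6 to 26.3) had a member peak. The share was 24.0% for pairs up to 100 bp apart, 28.9% from 100 to 200 bp, 22.7% from 200 to 300 bp, 32.5% from 300 to 500 bp and 25.7% from 500 to 1000 bp. The exact 95% intervals of these shares all overlapped, with 16.9 to 29.4 for the lowest and 24.4 to 41.5 for the highest. From 1000 to 2000 bp it was 3.62%, but there the rule leaves little room for a middle within 1 kb of both ends. By single ends, 25.6% of the 2609 in divergent pairs had a peak middle within 1 kb (interval 23.9 to 27.3), against 11.2% of the 20135 others (10.8 to 11.7). A window around one end of a close pair also takes in the partner's start, and both ends can count the same peak, so the intervals are too narrow.

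No pair on chromosome X was bound. Shares on autosomes ran from 14.3% of 56 pairs on chromosome 12 to 36.7% of 90 pairs on chromosome 5. On chromosome X, 0 of 35 pairs had a member peak, which allows a share of up to 8.57% (3 of 35 pairs), or up to 10.0% by the exact 95% interval. Among all 5' ends on X, 21 of 1244 (1.69%, interval 1.05 to 2.57) had a peak within 1 kb. On Y the count was 0 of 13 ends.

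Bound pairs more often had both genes at a wild-type mean of at least 1 CPM in P8 testis. Values in log2 CPM are not divided by transcript length, so an order between genes also carries their lengths. The wild-type mean was at least 0 log2 CPM (1 CPM) for both genes in 79.4% of bound pairs (interval 74.5 to 83.8) and in 67.1% of the other divergent pairs (64.1 to 70.0). Both were below 0 in 4 of 316 bound pairs. Seen from the other side, 27.1% of the 925 pairs with both genes at or above 0 were bound, 17.1% of 357 with a single such gene and 10.3% of 39 with none (interval 2.87 to 24.2). The median over the 628 genes was 5.21, 5.27 and 5.21 log2 CPM in wild-type replicates 1 to 3 and 5.26, 5.20 and 5.34 in the null libraries. Genes of unbound pairs had wild-type medians of 4.36 to 4.40, and all 22744 genes of 3.43 to 3.49. The medians of bound pair genes were above those of unbound pairs in all 6 libraries.

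Shares of ends with a peak were also counted by level of expression. Ends in divergent pairs, placed by the gene's own wild-type log2 CPM, had a peak within 1 kb in 17.0%, 20.5%, 21.1%, 25.9% and 36.3% of cases from the lowest to the highest of 5 equal groups of genes. Other ends had 3.17%, 4.38%, 9.59%, 17.6% and 22.7%. A quiet gene in a pair can sit beside an active one, so each paired end was also placed by the higher level of the partners. The shares were then 2.22% (1 of 45 ends), 12.1%, 15.3%, 22.2% and 34.9%. Both ends of a pair placed this way fall in the same group and can count the same peak, so the intervals are too narrow and no difference between the classes is read from them. In the group below the highest, the lower bound for paired ends was 19.5% and the upper bound for other ends 18.9%. In the highest group these bounds were 32.1% and 24.0%. In the lowest group the intervals overlapped, at 0.0563 to 11.8 for paired ends and 2.67 to 3.75 for other ends.

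**Figure D3:**
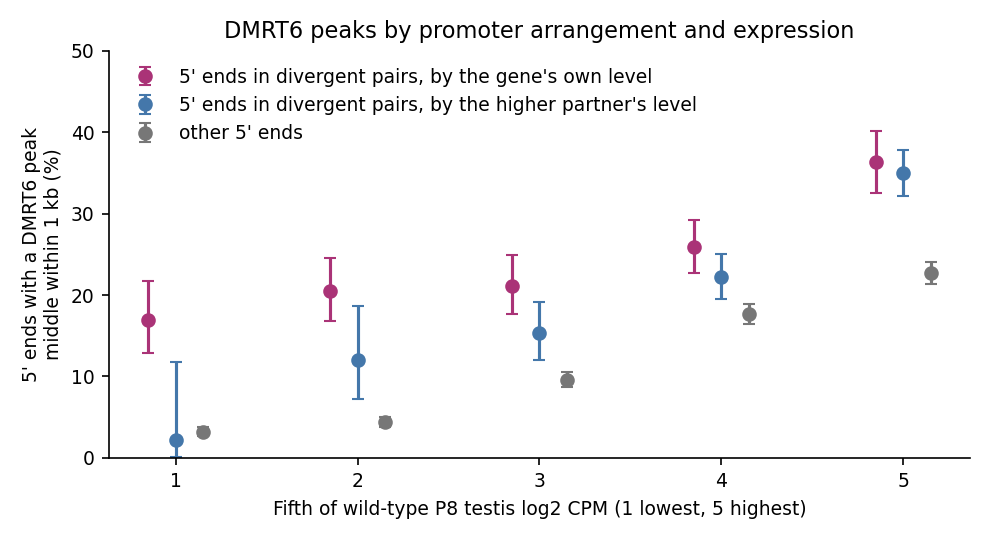
Share of 5' ends with a DMRT6 peak middle within 1 kb, by 5 equal groups of wild-type log2 CPM in P8 testis, for ends in divergent pairs (by own level and by the higher partner's level) and for other ends, with exact 95% binomial intervals. The shares are largest in the highest group in each series, at 36.3%, 34.9% and 22.7%, and the intervals of paired ends are too narrow because both ends can count the same peak.

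Some bound pairs had abundant reads from both partners, and the examples here and in the next paragraph were ranked among pairs with full gene symbols. Hdlbp, which encodes the RNA-binding protein vigilin, was at 9.01, 9.07 and 9.03 log2 CPM in wild-type replicates 1 to 3, and its partner Sept2, a septin, at 8.66, 8.63 and 8.62. The peak (105.43) lay 484 bp inside Hdlbp. Cbx5, heterochromatin protein 1 alpha, and Hnrnpa1, a splicing regulator, were at 8.40 ± 0.02 and 8.89 ± 0.10 (SD, n = 3) with a peak of 123.45 between their starts. Hnrnpa2b1 with Cbx3, heterochromatin protein 1 gamma, had means of 10.31 and 7.95. Slc39a6, a zinc transporter, with Elp2, a subunit of Elongator, had 7.25 and 7.49, and the replication helicase subunit Mcm4 with Prkdc, the catalytic subunit of DNA-dependent protein kinase, had 7.53 and 7.19.

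Other bound pairs had reads almost only from one side. Foxa3, a liver and gut forkhead factor, had wild-type values of -2.50, -1.82 and -2.13 log2 CPM, where a level of -3.16 to -2.89 corresponds to 3 reads, while its partner Sympk, a scaffold of mRNA 3' end processing, was at 5.84 ± 0.22 (SD, n = 3). Nae1, a subunit of the NEDD8-activating enzyme, was at 7.13 ± 0.02 and the carbonic anhydrase gene Car7 at -0.63 ± 0.54, with a peak of 66.75 at the centre of the 63 bp between them. Ndc80, a kinetochore protein, was at 6.36 beside Mettl4-ps1 at -1.26. Mdh2, mitochondrial malate dehydrogenase, was at 8.20 beside Styxl1 at 0.68, and Dst, the cytoskeletal linker dystonin, at 9.24 beside Bend6 at 1.87. Across bound pairs the difference between partners had a median of 2.20 log2 CPM, and 2.83 at unbound pairs, with overlapping quartiles (0.88 to 5.09 and 1.18 to 5.49).

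**Figure D4:**
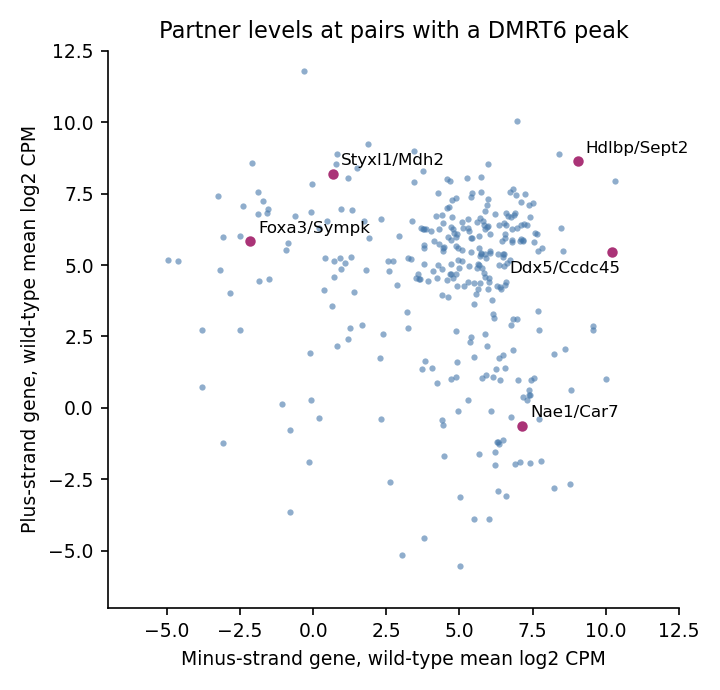
Wild-type mean log2 CPM of the minus-strand gene against the plus-strand gene for the 316 pairs with a DMRT6 peak, 1 point a pair, not corrected for transcript length. Most pairs have both genes above 0, and marked examples such as Nae1/Car7 (7.13 and -0.63) have reads almost only from one side.

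Gene lists were counted at bound pairs against the 2.76% of all genes that sat there. Of the 22744 genes in the table, 2609 (11.5%) were in a divergent pair, and 24.1% of those were in a bound one. Among 91 DNA replication and repair genes, 40 were in a divergent pair and 16 in a bound one (17.6% of the list). A list with more genes in divergent pairs has more that the rule could select. Leading examples were Fancd2 of the Fanconi anemia pathway with Tmem111 (score 210.77, 9 bp from the nearer end), Rev3l, the catalytic subunit of DNA polymerase zeta, with E130307A14Rik (189.48), Palb2, the BRCA2 partner, with Dctn5 (169.60), and Rad17, a checkpoint clamp loader, with Taf9 (127.35). RNA splicing and processing genes had 14 of 104 at bound pairs (13.5%), led by Ddx5 and by the spliceosomal Snrpd3 and Dhx38. Replication-dependent histones had 14 of 61 (23.0%), led by Hist1h2ae/Hist1h2bg, although reads of near-identical histone genes are hard to assign to one copy. In each of these 3 groups, 37.8% to 40% of the genes that were in a divergent pair at all were in a bound one. These shares are of 36 to 40 genes and carry no interval. In this and the other lists both partners of a pair can be members, as at Hist1h2ae/Hist1h2bg. The same peak then counts for both genes. The bound replication and splicing genes had median wild-type levels of 6.63 and 7.48 log2 CPM, and the bound histones 0.22. Of all paired ends in the highest of 5 level groups, which holds the replication and splicing medians, 36.3% had a peak within 1 kb. The share was 20.5% in the second lowest group, which holds the histone median. A peak within 1 kb of an end is a different measure from a place in a bound pair. The part of expression level in the list shares was not tested.

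The remaining lists differed in size and in how many genes were in divergent pairs. Of the genes in a divergent pair, 33.3% were in a bound one for the proteasome list and for the transcription list. This share was 32.1% for cell cycle, 22.2% for mitochondrial ribosome, 14.3% for Zfp and 10% for respiratory chain genes. Transcription and chromatin genes had 9 of 120 at bound pairs, including the TFIIH subunit gene Gtf2h3 with Eif2b1 (136.9), and cell cycle and centrosome genes 9 of 120, including Ncaph2, a condensin II subunit, with Lmf2 (166.13), and Cenpk, a centromere protein, with Ppwd1 (125.6). Mitochondrial ribosome and translation genes had 6 of 99, with Mrps5 beside Zfp661 (297.25), Mrps18c beside the helicase gene Helq (279.34) and Mrps27 beside Ptcd2 (162.96). Proteasome and ubiquitin genes had 4 of 66, among them Psmc2, a proteasome ATPase, with Dnajc2 (139.18). Respiratory chain and import genes had 3 of 103, although 30 were in divergent pairs, and Zfp zinc finger genes 5 of 371. Meiosis and germ line genes had 0 of 64 and spermatid and sperm genes 0 of 36, with only 5 of each in a divergent pair. Of 24 genes of textbook divergent pairs, a list made of known pairs, 10 were in a divergent pair by the table and 6 at a bound one (25% of the list, 60% of those 10), forming Gart/Son, Atm/Npat and Mcm4/Prkdc, with scores of 66.16, 55.15 and 52.16.

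In Dmrt6 null testis at P8 no gene of a bound pair passed the test. Dmrtb1 itself, at -3.78 on the log2 scale, did not pass either (adjusted p = 0.0516 in limma). A gene that was not called is therefore not shown to be unchanged. Of the 628 genes, 562 had a mean of at least 0 log2 CPM over the 6 libraries and were tested, within a limma fit over 16634 genes. At a Benjamini-Hochberg adjusted p below 0.05, 0 of 562 were called, where 0.00601% of all tested genes were (1 gene, Gm5859, which is in no divergent pair). An unadjusted p below 0.05 was reached by 18 of 562 (3.20%, 10 higher and 8 lower in null), beside 3.47% of all tested genes. The 3 null and 3 wild-type libraries did not overlap in 74 of 562 genes (13.2%), beside 11.1% of all. These shares were close to those of all tested genes. Among 1622 tested genes of unbound divergent pairs they were 1.91% (interval 1.30 to 2.70) and 10.7%. The interval of the first share at bound pairs was 1.91 to 5.01. Every adjusted p of the 562 was at least 0.755 in limma. None of the 562 differed by 1 log2 unit or more, beside 86 of all 16634 tested genes and 5 of the 1622. Such differences were rare in every set, so the 0 is not read as a trait of bound pairs.

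The changes over bound pair genes were small and centred near 0. The null minus wild-type difference had a median of -0.018 on the log2 scale (quartiles -0.116 and 0.111, range -0.71 to 0.70), with 261 genes higher and 301 lower in null. The median over all tested genes was 0.009, with 8592 higher and 8042 lower. For 1622 tested genes of unbound divergent pairs it was 0.010. Without null replicate 3 the bound pair median was 0.011, so its sign depended on that library. In that run 13 bound pair genes (2.31%) had an unadjusted p below 0.05, beside 519 of all tested genes (3.11%). Without null replicate 2 these numbers were 70 of 562 and 2552 (15.4% of all tested genes). Without wild-type replicate 1 they were 5 (0.888%) and 264 (1.59%), and without wild-type replicate 3 they were 8 (1.43%) and 244 (1.46%). The counts over all tested genes thus moved with those of bound pair genes. With quality weights for each library, 2 genes passed the adjusted threshold, Chdh higher at 0.65 (adjusted p = 0.0396) and Pcna lower at -0.34 (adjusted p = 0.0456), among 136 of all genes.

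Genes with the smallest p and no overlap between genotypes are given as values, since none passed the adjusted test (adjusted p = 0.755 for each in limma). Cdca3, a cell division protein whose partner is the deubiquitinase gene Usp5, was at 6.45, 6.42 and 6.50 log2 CPM in wild-type replicates 1 to 3 and at 6.18, 6.03 and 6.12 in the null libraries, a difference of -0.35 (SE 0.09). All 3 null libraries were below all 3 wild-type ones, and the peak (151.39) lay 486 bp inside Usp5. Chdh, which encodes mitochondrial choline dehydrogenase, was at 2.89, 2.93 and 2.57 in wild type and 3.47, 3.29 and 3.71 in null, a difference of 0.70 (SE 0.19). Its partner Il17rb, an interleukin 17 receptor, differed by 0.46 (SE 0.28). Tcf19, a PHD finger protein, was at 5.19, 5.33 and 5.37 in wild type and 5.03, 4.71 and 4.68 in null, a difference of -0.48 (SE 0.13). Its partner Cchcr1 differed by -0.05 (SE 0.20).

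The lower genes included Pcna of the replication list. Pcna, the sliding clamp of DNA polymerases, was at 7.16, 7.30 and 7.48 in wild type and 6.97, 7.08 and 7.05 in null, a difference of -0.28 (SE 0.10). Dtl, the substrate receptor of a CUL4 ubiquitin ligase active in S phase, was at 6.62, 6.61 and 6.57 in wild type and 6.45, 6.26 and 6.31 in null. Both were lower in every null library, yet over the 16 tested replication and repair genes 7 were higher and 9 lower, with a median of -0.02 (10 and 6, median 0.03, without null replicate 3). The other lower genes were Prcp, a lysosomal carboxypeptidase, at -0.42 (SE 0.14), Alg5, an enzyme of N-glycan assembly, at -0.30 (SE 0.11), the histone demethylase gene Kdm4d at -0.71 (SE 0.29) from only 18 to 43 reads a library, and Btf3l4 at -0.31 (SE 0.13). Kdm4d was at -0.36 both on a log2 scale of CPM plus 1 and with quality weights for each library. With those weights Tcf19 was at -0.28, Dtl at -0.15 and Btf3l4 at -0.19.

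Higher values were led by Chdh and Agtpbp1. Agtpbp1, a tubulin deglutamylase whose loss causes degeneration of Purkinje cells and male germ cells in mice, was at 5.22, 5.55 and 5.42 in wild type and 5.76, 5.72 and 5.74 in null, a difference of 0.34 (SE 0.12). Its partner Naa35 differed by 0.08 (SE 0.10). Kctd21 was 0.45 (SE 0.16), Sec24a, a COPII vesicle coat subunit, 0.40 (SE 0.15), Fnip2, a folliculin-binding protein, 0.43 (SE 0.16), the translation helicase gene Dhx29 0.27 (SE 0.10), the polarity kinase gene Mark3 0.31 (SE 0.13) and Fbxo46 0.68 (SE 0.28) higher on the log2 scale. For 7 of these 8 genes the highest value of all 6 libraries was in null replicate 3, the one with the highest Sertoli markers, and 4 of the 8 lower genes had their lowest value there. The part of those markers in the values was not tested. With the quality weights Fnip2 was at 0.18 and Fbxo46 at 0.39. Without null replicate 3 the 8 higher genes differed by 0.18 (Mark3) to 0.58 (Chdh), with Fbxo46 at 0.36, and the 8 lower genes by -0.70 (Kdm4d) to -0.17 (Btf3l4).

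**Figure D5:**
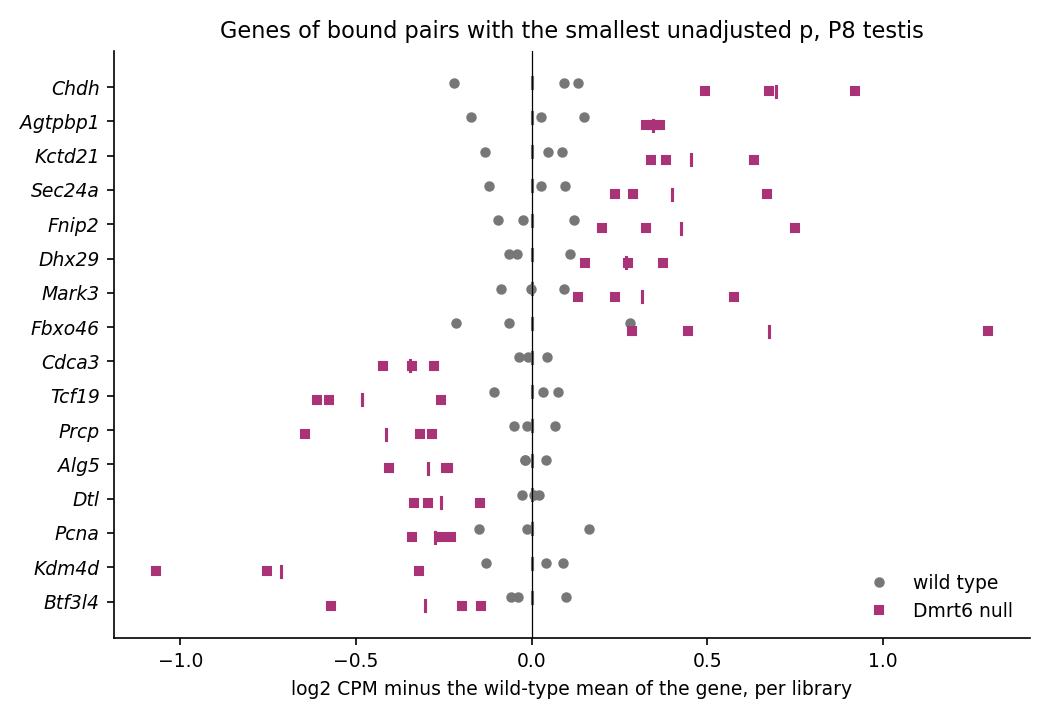
log2 CPM of each P8 library minus the gene's wild-type mean, for the 16 bound pair genes of smallest unadjusted p whose genotypes do not overlap, with a short bar at each group mean (n = 3). Differences run from -0.71 (Kdm4d) to 0.70 (Chdh), and no gene passed the adjusted threshold.

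Partners were compared for the direction of their difference. In 252 bound pairs with both genes tested, the differences had the same sign in 56.0% (interval 49.6 to 62.2), and in 59.9% of 676 unbound divergent pairs (56.1 to 63.6). Pearson r of the 2 differences across pairs was 0.29 at bound and 0.26 at unbound pairs. All points come from the same 6 libraries, and reads were not assigned by strand in any way the sources used here state, so reads from overlapping divergent transcripts cannot be told apart. By group, with all 6 libraries, the 9 cell cycle and centrosome genes had 1 higher and 8 lower (median -0.15), the 8 tested histones 1 higher and 7 lower (median -0.29), the 6 mitochondrial ribosome genes 0 higher and 6 lower (median -0.14) and the 14 splicing genes 4 higher and 10 lower (median -0.07). The 9 transcription and chromatin genes had 2 higher and 7 lower, the 4 proteasome and ubiquitin genes 1 and 3, the 3 respiratory chain and import genes 0 and 3, the 5 Zfp genes 2 and 3 and the 6 textbook pair genes 3 and 3. Over all tested genes 51.7% were higher with a median of 0.009, and 0 genes of these lists were called. These directions were also counted without null replicate 3, an alternative chosen after seeing the data. The splicing genes then had 7 higher and 7 lower (median 0.00), the replication and repair genes 10 and 6 (median 0.03), the proteasome and ubiquitin genes 2 and 2, the Zfp genes 3 and 2 and the textbook pair genes 5 and 1. The cell cycle and centrosome genes had 2 higher and 7 lower (median -0.08), the histones 2 and 6 (median -0.30), the mitochondrial ribosome genes 1 and 5 (median -0.05), the transcription and chromatin genes 2 and 7 and the respiratory chain and import genes 0 and 3 (median -0.12). All 562 bound pair genes then had 309 higher and 253 lower, and all 16662 genes tested without that library had 8510 and 8152. Hist1h2bk, one of these histones, had wild-type values of 2.18 ± 0.20 and null values of 1.51 ± 0.51 (SD, n = 3), with reads that near-identical copies could share.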

How the data were processed

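RNA-seq counted reads per gene in 6 whole testis libraries (3 wild type, 3 Dmrt6 null, P8), and ChIP-seq compared 1 DMRT6 immunoprecipitate with 1 input (adult). The deposited expression values are log2 CPM, with gene positions in the same table. STAR 2.3.0e, Bowtie2, Picard, edgeR and build mm9 are named, with no role, per the submitters' processing notes, and the authors' deposited peak score comes from MACS according to the name of the peak list. The read depth of the ChIP libraries is not given in the sources used here.

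Whole reads were recovered from the steps of the log2 CPM values (all values whole within 0.01 reads), giving 23768316 to 29046494 reads a library. The comparison of genotypes used limma 3.58.1 (R 4.3.3) with a mean-variance trend on the deposited log2 CPM of the 16634 genes with a mean of at least 0 over the 6 libraries, with Benjamini-Hochberg adjustment at 0.05. It was tested on simulated data, and other filters, scalings, library weights, voom, a replicate block, windows and score limits were tried. A two-sided exact permutation test of 3 against 3 cannot go below 0.1 and was not used. Errors are the SD over 3 libraries or the SE of the fit, and shares carry exact 95% Clopper-Pearson intervals, which cover counting error only. Python 3.11.15, pandas 2.3.3 and scipy 1.17.1 did the rest. Replicates are biological per the labels' design text.

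The middle of a peak was the floor of its mean position, counted from 1. Named genes and pairs were taken by rule: the 8 peaks of highest score, the 3 peaks on each side of the 1 kb limit, up to 5 pairs with several peaks, up to 4 pairs a gene list, up to 8 genes of smallest p in each direction without overlap, and, among pairs with full gene symbols, the 5 with the highest lower partner and the 5 with the largest difference. Partners of named genes, Rnf185 and Hist1h2bk were added after their values were seen. The members, lists and rules were chosen with earlier results of these data known. RefSeq sequences were matched by gene identifier, symbol or a synonym of 1 gene, with a window at every RefSeq start of the gene.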

Additional observations from a re-analysis of the deposited data

How the results depend on the processing

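Of the 16 named genes, 2 passed the adjusted threshold, both with array weights. They were chosen for groups that do not overlap, so their direction cannot turn when a library is left out and says nothing of stability. With 3 libraries a genotype, small changes are not detectable, and large ones can also miss the adjusted threshold. Dmrtb1 itself, at -3.78 on the log2 scale, had an adjusted p of 0.0516 in the limma fit. The ChIP has no replicate. Leaving out each library in turn gave 0 to 5 genes called over all tested genes and 0 at bound pairs. The median change of bound pair genes was then -0.041 to 0.011 and their wild-type level 5.19 to 5.26 log2 CPM. An unadjusted p below 0.05 was reached by 5 to 70 bound pair genes, beside 244 to 2552 of all tested genes. The single gene called became 0 with a mean of at least 2, 3 with no filter, 2 with quantile normalization, 3 with median centring and 136 with array weights. The weights gave 2 called among bound pair genes. They also gave 127 at an unadjusted p below 0.05 there (22.6% of those tested), beside 28.4% of all tested genes. Median centring moved the bound pair median to -0.065, with all genes at -0.038. The replicate numbers did not pair libraries (r of deviations for the same number -0.085, -0.217 and -0.039, and none correlated best with its own number). With the replicate block, 2 genes were called in all, and 10 bound pair genes (1.78%) had an unadjusted p below 0.05, beside 2.12% of all tested genes.

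A score of at least 100 left 129 peaks with a median score of 155.9, bound 9.61% of pairs, and gave 10.2% of paired and 4.59% of other ends with a peak. Within 500 bp these shares were 19.6%, 22.5% and 9.16%, within 2000 bp 28.9%, 29.4% and 13.7%, and among genes with a mean of at least 0 they were 27.2%, 28.7% and 14.4%. Paired ends exceeded the others each time. In every setting, though, a window at a close pair can take in the partner's start, and both ends can count the same peak. The settings therefore do not put the classes on equal terms. The wild-type level of bound pair genes was 5.49 with the filter at 0, 5.32 for peaks of at least 100 and 5.27 on a log2 scale of CPM plus 1. The causes of these shifts were not tested.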
